A study of Mus musculus with 2 samples.

Results

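The spots described here are the 300 with the highest summed level of Mmp3 and Il1rn in a spatial transcriptome of mouse fracture callus, out of 6380 spots in 2 sections. They were chosen by their measured counts of these genes, among the 5920 spots with at least 1000 UMIs (unique molecular identifiers, each counting 1 captured probe pair), here called kept spots, after the 300 spots with the highest summed level of Gpnmb and Ccl7 had been removed from the choice. Levels are given in CPM, the UMIs of a gene per 1000000 UMIs of all genes in the same spots, and since each gene has its own probes they are compared within a gene and not between genes. The tissue was the tibial callus 10 days after a pinned distal fracture in 8-week-old female mice, fixed in formalin, decalcified in 14% EDTA and captured with the 10x Genomics Visium assay for fixed tissue, in which each spot is a small region that can hold several cells. The control was a Postn-cre-negative Nf1+/fl mouse. The Nf1Postn littermate carried Postn-cre with 1 floxed and 1 null Nf1 allele, so that cells in which the periostin promoter is active, mainly in the periosteum, lose both copies of this Ras inhibitor and its other cells keep 1. Calluses of 1 mouse per genotype were embedded in 1 block, and both sections cut from it hold both calluses. The sample titles call the sections biological replicates, while the series' design puts both calluses in the same block. The sections were treated as repeats of the same mice, so that genotype and animal cannot be told apart, and no test between genotypes or groups of spots was possible. Intervals are exact 95% Poisson or binomial intervals, which cover counting error only.

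Mmp3 encodes stromelysin-1, a metalloproteinase that cleaves proteoglycans and other matrix proteins and activates other matrix metalloproteinases. It is made mainly by fibroblasts and synovial cells under interleukin-1 and tumor necrosis factor. Il1rn encodes the interleukin-1 receptor antagonist, which occupies the interleukin-1 receptor without signaling and is made by macrophages, neutrophils and epithelial cells. In a healing fracture, an early inflammatory phase precedes the soft callus, in which cartilage forms and is then replaced by woven bone.

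In the build of the deposited tables (mm39), Mmp3 (ENSMUSG00000043613) lies at chr9:7445822-7455976 and Il1rn (ENSMUSG00000026981) at chr2:24226865-24241507. The 250 bases before the RefSeq starts of both genes were searched for AP-1 (TGANTCA, the same on both strands) and NF-kB (by its usual 10-letter consensus, both strands), since both factors act downstream of interleukin-1. The Mmp3 window and 1 of the 3 Il1rn windows each held 1 AP-1 match, and 6.75% of 32851 promoter windows of this length held the motif. None of the 4 windows held an NF-kB match, against 5.001% of all windows. The sequences, from the RefSeq promoter table (GRCm38.p6) and found once in GRCm39, are shown on the plus strand with the AP-1 match in capitals, because this element is what both windows share, and a match is a description of letters only.
Mmp3, chr9:7445746-7445812: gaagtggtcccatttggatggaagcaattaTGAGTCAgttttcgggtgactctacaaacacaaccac
Il1rn, chr2:24226701-24226767: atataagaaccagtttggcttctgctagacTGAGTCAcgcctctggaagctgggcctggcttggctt
The matches lie 46 to 40 bases before the Mmp3 start and 141 to 135 bases before the Il1rn start.

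The choice of members rested on few molecules. Of the 300 members, 130 held 1 UMI of Mmp3 and Il1rn together, 99 held 2, 69 held 3 to 7 and 2 held more than 7, namely 17 and 23 UMIs. A single UMI reached the threshold only in shallow spots, so all 130 members with 1 UMI had at most 3032.5 UMIs in total (median 2197.75), against a median of 6228 in the 71 members with 3 or more. The last spot inside the choice had 1 UMI in 3032.5 (329.761 CPM) and the first outside had 1 UMI in 3035 (329.489 CPM), followed by a spot with 3 UMIs in 9117 (329.056 CPM). Spots on either side of the threshold were thus alike in level. Among kept spots outside both groups of 300, another 734 held 1 UMI and 153 held 2 or more, at greater depth.

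Mmp3 alone was detected in 155 members, Il1rn alone in 69 and both genes in 76, and the 130 members with 1 UMI could not hold both. Among the 170 with 2 or more UMIs, both genes were thus found in 76. In section 1, both were found in 2 of 21 control and 10 of 77 Nf1Postn members. In section 2, both were found in 48 of 107 control and 16 of 95 Nf1Postn members. A choice by Mmp3 alone kept 205 of the 300 members and a choice by Il1rn alone kept 137.

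The members made up 21 of 1655 control spots in section 1 (1.27%, interval 0.787% to 1.93%) and 107 of 1695 in section 2 (6.31%, 5.20% to 7.58%). In the Nf1Postn callus they made up 77 of 1126 spots in section 1 (6.84%, 5.43% to 8.47%) and 95 of 1443 in section 2 (6.58%, 5.36% to 7.99%). The sections of the control mouse thus differed more from each other than the genotypes did in section 2. Depth differed as well, with a median of 6615.25 UMIs in kept control spots and 2888 in kept Nf1Postn spots. Among members it was 2908 UMIs in section 1 control, 2130 in section 1 Nf1Postn, 4516 in section 2 control and 2833 in section 2 Nf1Postn. Counted only where at least 2 UMIs supported the choice, members were 97 control spots (2.90%, 2.35% to 3.52%) and 73 Nf1Postn spots (2.84%, 2.23% to 3.56%). With at least 3 UMIs they were 51 control (1.52%, 1.14% to 2.00%) and 20 Nf1Postn spots (0.779%, 0.476% to 1.20%), so the genotype with the larger pooled share changed with the number of molecules asked for. In section 1 the share in Nf1Postn was the larger at 2 or more UMIs (2.58% against 0.665%) and at 3 or more (0.533% against 0.363%, on 6 spots each and with overlapping intervals), and in section 2 the share in control was (5.07% against 3.05%, and 2.65% against 0.970%). The pooled order also changed with the gene, since a choice by Il1rn alone gave a log2 ratio of the Nf1Postn over the control share of -0.30, beside 0.81 for the members.

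**Figure D1:**
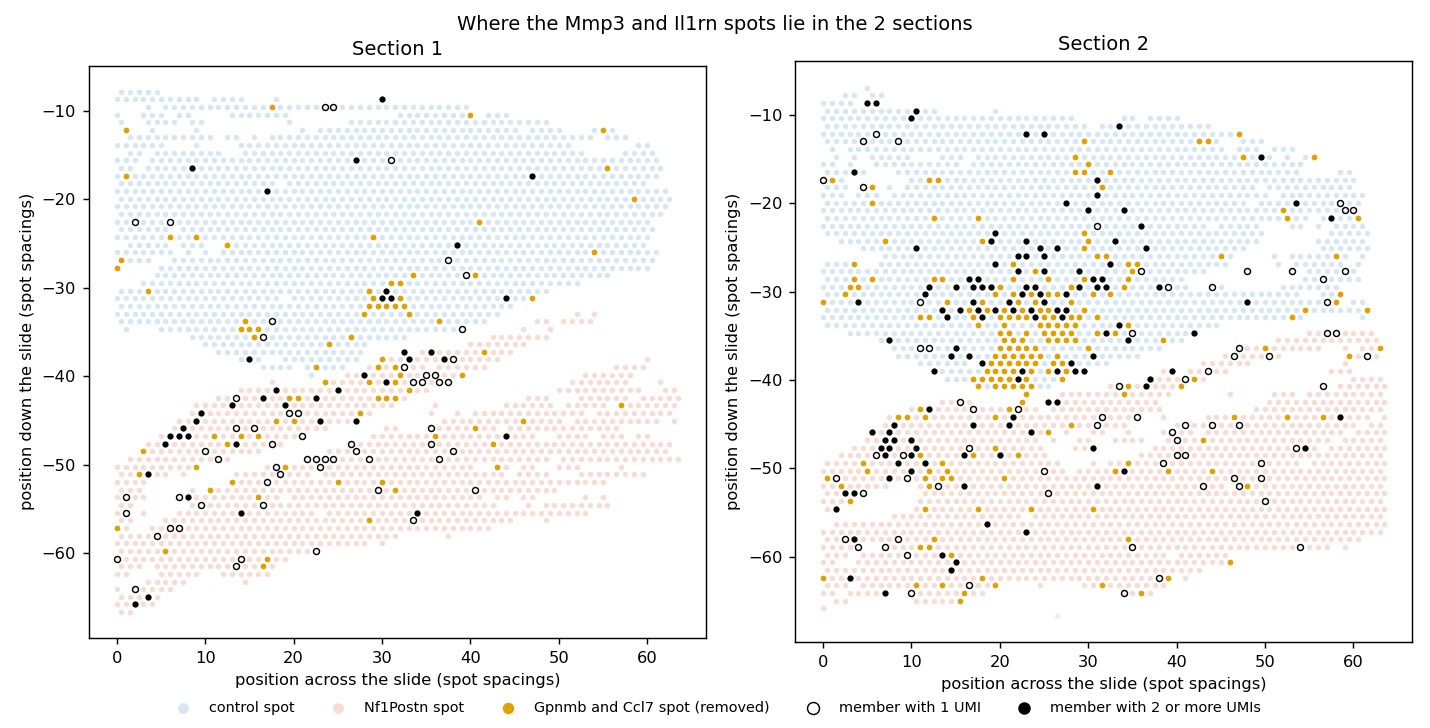
Array positions of all kept spots in section 1 (left) and section 2 (right), in spot spacings, with control spots in light blue, Nf1Postn spots in light red, the 300 removed Gpnmb and Ccl7 spots in ochre, members with 1 UMI as open circles and members with 2 or more as filled circles. Most of the 21 control members of section 1 lie apart from each other, whereas many of the 107 control members of section 2 surround a dense field of removed spots.

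Over all kept spots, the level of Mmp3 was 10.7 CPM (interval 9.04 to 12.6) in section 1 control, 38.1 CPM (31.8 to 45.3) in section 1 Nf1Postn, 90.5 CPM (85.2 to 96.0) in section 2 control and 45.4 CPM (40.2 to 51.2) in section 2 Nf1Postn. In spots that hold several cells, fewer cells of a kind and less RNA per cell cannot be told apart. The control callus was both the lowest and the highest, and the Nf1Postn callus lay between in both sections. Il1rn was at 18.9 CPM, 22.5 CPM, 42.2 CPM and 14.9 CPM in the same order. By the choice itself, the members were high in both genes, with Mmp3 at 197 CPM in section 1 control, 367 CPM in section 1 Nf1Postn, 386 CPM in section 2 control and 391 CPM in section 2 Nf1Postn. Il1rn in these members was at 255 CPM, 183 CPM, 185 CPM and 130 CPM.

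Most UMIs of both transcripts lay outside the members. Of the Mmp3 UMIs in kept spots, 25.4% were in the members, 35.3% in the 300 removed Gpnmb and Ccl7 spots and 39.3% in the remaining spots. Of the Il1rn UMIs, 21.1% were in members, 31.4% in removed spots and 47.5% in the remaining spots. In section 2 control, the removed spots were at 502 CPM for Mmp3 (460 to 546) and 244 CPM for Il1rn (215 to 275), above the members there. In the other section and genotype combinations the removed spots were at 26.3 to 114 CPM for Mmp3, below the members. The highest Mmp3 count in a removed spot was 67 UMIs and in a member 20. Had the Gpnmb and Ccl7 spots been kept in, 78 of the 300 highest spots would have been such spots and 222 of the present members would have remained.

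**Figure D2:**
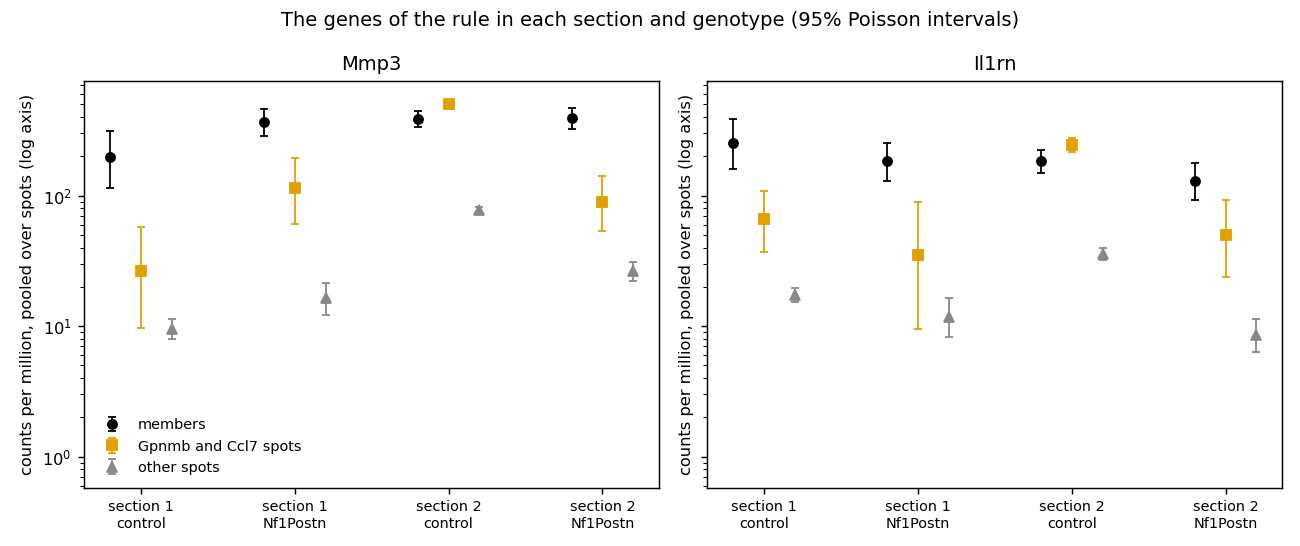
Pooled level of Mmp3 (left) and Il1rn (right) in CPM on a log axis, by section and genotype, in members (circles), removed Gpnmb and Ccl7 spots (squares) and all spots that are not members, removed spots included (triangles), with 95% Poisson intervals. The removed spots of section 2 control reach 502 CPM of Mmp3 and lie above the members, and in the other combinations they lie below them.

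Members lay near each other more often than their share of spots. Among the kept spots adjacent to a member, 13.2% were members, against 4.94% of the spots adjacent to any kept spot. The 4 combinations showed the same order, with 7.41% against 1.17% in section 1 control, 14.0% against 6.89% in section 1 Nf1Postn, 13.1% against 6.31% in section 2 control and 13.8% against 6.27% in section 2 Nf1Postn. Even so, 16 of 21, 37 of 77, 52 of 107 and 49 of 95 members in that order had no adjacent member, and the largest connected patches held 3, 6, 5 and 8 spots. With members and removed spots left out, Mmp3 at 1, 2 and 3 or more grid steps from a member was at 24.2, 4.51 and 9.06 CPM in section 1 control on 10, 4 and 108 UMIs, and at 21.1, 16.8 and 6.88 CPM in section 1 Nf1Postn on 16, 11 and 11 UMIs. In section 2 it was at 55.9, 41.9 and 24.4 CPM in control and at 39.2, 28.5 and 15.7 CPM in Nf1Postn. These remaining spots were bounded from above by the choice itself, and the values are a description. A spot of collagen-rich stroma, one of the 300 highest in Postn and Col3a1 outside both groups, was adjacent to 0%, 35.1%, 11.2% and 18.9% of the members and to 8.03%, 9.97%, 7.95% and 6.32% of the remaining spots. A removed Gpnmb and Ccl7 spot was adjacent to 23.8%, 23.4%, 44.9% and 28.4% of the members in the same order. For the remaining spots the shares were 8.30%, 15.3%, 19.5% and 17.3%. Among members with 3 or more UMIs of Mmp3 and Il1rn they were 33.3%, 50%, 55.6% and 7.14%, on 6, 6, 45 and 14 spots. These members were thus below the remaining spots in section 2 Nf1Postn.

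For all other genes, members were set against the 5620 kept spots that were not members, removed spots included. A gene was counted as higher or lower where its level differed 2-fold or more in the same direction in each of the 4 combinations of section and genotype, for genes whose UMIs, summed over both groups, reached 50 per section. Of 11830 genes, 16 (0.135%) were higher and 0 (0%) were lower, and 2 of the 16 were Mmp3 and Il1rn. No test is behind this count. It was 226 in section 1 and 90 in section 2 taken alone, and 2 with the mean of log2(CPM + 1) over spots in place of pooled levels. The 14 genes other than Mmp3 and Il1rn were sparse, with 10 to 38 UMIs each in the members. They included Cxcl9, a chemokine induced by interferon gamma, with 18 UMIs in members (log2 ratio 1.85), Slfn1, a Schlafen family gene (25 UMIs, 1.68), Ctse, the aspartic protease cathepsin E (20 UMIs, 1.60), Slc15a3, a lysosomal peptide transporter of myeloid cells (38 UMIs, 1.39), Plek, which encodes the protein kinase C substrate pleckstrin of blood cells (31 UMIs, 1.31), and Adgrg3, a receptor of granulocytes (10 UMIs, 1.51). BC035044 (15 UMIs, 1.90), Gm15107 (17 UMIs, 1.77), Zfp583 (17 UMIs, 1.76), Gpr182 (11 UMIs, 1.63), Gm21083 (23 UMIs, 1.56), Spin2g (22 UMIs, 1.56) and Gtpbp10 (17 UMIs, 1.29) completed the 15 with the largest ratios.

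Against the 977 adjacent spots that were not themselves members or removed spots, 2 of 5733 genes (0.0349%) were higher and 0 were lower. These 2 were Il1rn and Mmp3, the genes of the choice. In no other gene with enough UMIs did the members differ 2-fold from their immediate neighbours in every combination, and the limit on lower genes given above holds here too.

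Whether these spots are inflamed stroma was examined with marker genes. The 12 genes of the stromal fibroblasts list were all detected in members. The summed level was 39081 CPM in section 1 control, 41910 CPM in section 1 Nf1Postn, 41508 CPM in section 2 control and 34380 CPM in section 2 Nf1Postn. In the spots that were not members it was 48291, 36032, 51310 and 25060 CPM in the same order. The summed level of members was thus lower in the control callus and higher in the Nf1Postn callus. None of the 12 genes was 2-fold higher in every combination, and 4 of 12 were above the other spots in all 4, beside 10.4% of all genes. By section, 5 and 7 of the 12 were above the other spots in control members and 12 and 11 in Nf1Postn members. Over all genes the shares were 47.1% and 53.9% in control and 56.2% and 60.6% in Nf1Postn. The median log2 ratio of the list over pooled spots was 0.23 beside 0.08 over all genes tested. It turned to -0.14 beside -0.29 with TMM scaling factors (trimmed mean of M-values, which rescale library totals). The summed level over all members ran the other way, at 39445 CPM against 44333 CPM. Col1a1, the main collagen of bone and fibrous tissue, made up 65.5% of the list in members and had a ratio of -0.34. Pi16, a marker of adventitial fibroblasts, had the largest ratio in the list, 0.56.

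Genes of muscle and cartilage were also detected throughout the members. The mature skeletal muscle list stood at 38581 CPM and the chondrocytes list at 24051 CPM over all members, and the probes for Myh4, a fast myosin heavy chain, and Col2a1, the collagen of cartilage, gave 23.9% and 69.9% of their UMIs. In section 1 control, section 1 Nf1Postn, section 2 control and section 2 Nf1Postn, the muscle list was at 15189, 44027, 48410 and 100929 CPM in members with 1 UMI of Mmp3 and Il1rn and at 10689, 18946, 26483 and 50305 CPM in those with 3 or more. These classes rest on counts that the choice used. Several genes that usually mark acute inflammation of stroma were sparse. Over all members, Il6 had 6 UMIs (5.36 CPM against 1.96 CPM elsewhere), Cxcl1 had 6 (5.36 against 3.50 CPM), Il1b had 11 (9.82 against 8.96 CPM), Saa3 had 5 (4.46 against 2.23 CPM) and Ccl2 and Il1a had 1 each. These transcripts were rare in both groups. Ptx3, a soluble pattern receptor, was more frequent, with 151 UMIs in control and 63 in Nf1Postn members. Ccl7 had 26 UMIs in members, but the spots richest in Gpnmb and Ccl7 had been removed from the choice. Since the marker genes gave no single answer, the members are called Mmp3 and Il1rn spots here and are given no cell type.

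**Figure D3:**
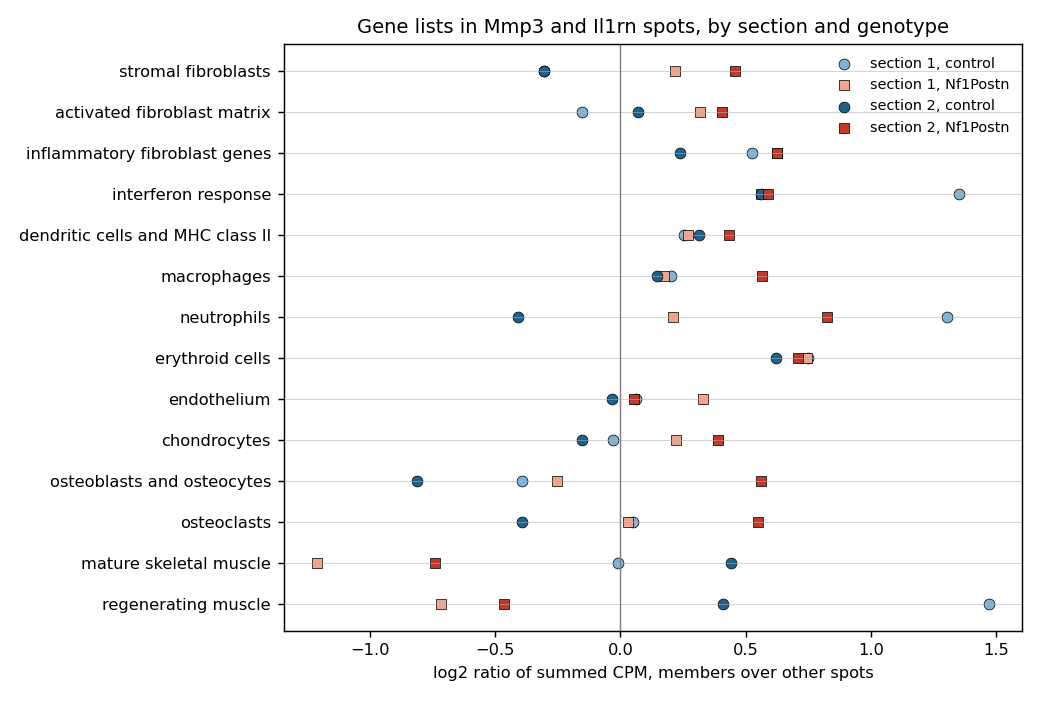
Log2 ratio of the summed CPM of a gene list in members over spots that are not members, with 1 point for each section (light for section 1, dark for section 2) and genotype (blue circles control, red squares Nf1Postn). Of the lists plotted, the inflammatory fibroblast, interferon response, dendritic cell and MHC class II, macrophage and erythroid lists lie above 0 in all 4 combinations, while the stromal fibroblasts list lies below 0 in the control callus and above 0 in the Nf1Postn callus.

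Of the activated fibroblast matrix list, 4 of 12 genes had a ratio above 0, with a median of -0.10 and summed levels of 9277 CPM in members and 9637 CPM elsewhere. By section, 4 and 7 of the 12 were above the other spots in control members and 9 and 11 in Nf1Postn members, beside 47.1% and 53.9% of all genes in control and 56.2% and 60.6% in Nf1Postn. Of the inflammatory fibroblast genes list, 14 of 17 genes had enough UMIs, 12 of them had a ratio above 0 and none was 2-fold higher in every combination, with a median log2 ratio of 0.51. In section 1, 7 of the 14 were above the other spots in control members (50%) and 8 in Nf1Postn members (57.1%), near the shares of all genes. In section 2 there were 12 in each genotype. Over all genes, 7124 of 11830 had a ratio above 0, and 4 of the 14 were above the other spots in all 4 combinations, beside 1228 of 11828 genes other than Mmp3 and Il1rn (10.4%). Pdpn, with 142 UMIs in members, encodes podoplanin, a surface glycoprotein of activated fibroblasts and lymphatic endothelium. It was at 151 CPM in the section 1 control members against 80.3 CPM elsewhere, at 145 against 70.7 CPM in section 1 Nf1Postn, at 131 against 85.8 CPM in section 2 control and at 101 against 47.0 CPM in section 2 Nf1Postn. Members were the higher group in all 4 combinations, on 13, 30, 68 and 31 UMIs. Cxcl12, a stromal chemokine that holds hematopoietic cells, supplied 51.8% of the list's UMIs in members and hardly differed (log2 ratio 0.06). Ptgs2, the inducible cyclooxygenase, had a ratio of -0.22.

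Among genes of the interleukin-1 system other than Il1rn, 5 of 7 had a ratio above 0, beside 7124 of 11830 over all genes, with a median of 0.27, and 3 of 7 were above the other spots in all 4 combinations, beside 10.4% of all genes. Il1r1, the signaling receptor that the antagonist occupies, was at 104 CPM in section 1 control members against 77.3 CPM elsewhere, at 77.2 against 67.8 CPM in section 1 Nf1Postn, at 104 against 76.4 CPM in section 2 control and at 65.2 against 41.7 CPM in section 2 Nf1Postn. Il1rap, its accessory chain, had 42 UMIs and a ratio of 0.83. Il33, an alarmin of stromal and endothelial nuclei, had 46 UMIs and a ratio of 1.295, but in section 1 control it rested on 1 UMI (11.6 CPM against 11.5 CPM elsewhere). The NF-kB feedback and target genes had a median of 0.29, with 12 of 13 above 0 in pooled spots and 1 of 13 above the other spots in all 4 combinations, and none was 2-fold apart in each. Tnfaip2, whose probes gave the most UMIs of the list, was at 436 CPM in members and 413 CPM elsewhere.

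Of 11 other matrix metalloproteinases measured, 4 in section 1 and 6 in section 2 were above the other spots in control members, and 11 and 9 in Nf1Postn members, beside 47.1%, 53.9%, 56.2% and 60.6% of all genes in the same order. Pooled, 6 had a ratio above 0 and none was 2-fold apart in every combination, with a median of 0.07. Mmp13, the main collagenase of hypertrophic cartilage and bone, was at 340 CPM in members and 390 CPM elsewhere, and Mmp9, the gelatinase of osteoclasts and neutrophils, was at 762 and 1235 CPM. Mmp14, a membrane-bound activator of Mmp2, was at 773 and 739 CPM. Mmp19 had 89 UMIs and a ratio of 1.07, but it was lower in section 1 control members, at 23.2 CPM on 2 UMIs against 34.7 CPM. Of the aggrecanases and related proteases list, 6 of 7 genes had a ratio above 0 (median 0.40), beside 7124 of 11830 over all genes, and 5 of 7 were above the other spots in all 4 combinations, beside 10.4% of all genes, with Adamts5, an aggrecanase, at 38.4 against 23.1 CPM. Timp1, an inhibitor of metalloproteinases, was at 104 CPM in members and 120 CPM elsewhere.

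The summed level of the interferon response list, written after values had been seen and supporting nothing on its own, was higher in members in each section and genotype, while 13, 14, 16 and 15 of its 19 genes were above the other spots in section 1 control, section 1 Nf1Postn, section 2 control and section 2 Nf1Postn, beside 47.1%, 56.2%, 53.9% and 60.6% of all genes. It was 904 CPM (interval 715 to 1129) in section 1 control members against 355 CPM (345 to 365) elsewhere, and 487 CPM (397 to 592) against 330 CPM (310 to 351) in section 1 Nf1Postn. In section 2 it was 850 CPM (772 to 933) against 575 CPM (561 to 589) in control and 512 CPM (435 to 599) against 341 CPM (326 to 356) in Nf1Postn. In section 1 control, the 5 members richest in the list held 75.6% of its 78 UMIs, and 5 of the 19 genes were at 0. In a separate grouping of these 21 members, the 5 that touched a removed spot held 47 UMIs. The 16 that touched none were at 525 CPM, against 323 CPM in other such spots. Of the 19 genes, 18 had a pooled ratio above 0, and 6 of 19 were above the other spots in all 4 combinations, as were 1228 of the 11828 genes tested other than Mmp3 and Il1rn (10.4%). The median log2 ratio of the list was 0.66, and 0.03 with the mean of log2(CPM + 1) over spots, beside -0.21 over all genes on that scale. Cxcl9 was the single gene 2-fold higher in each.

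Oasl2, an interferon-induced member of the oligoadenylate synthetase family, gave 211 of the list's 778 UMIs in members, a count that also depends on its probes. It was at 267 CPM in section 1 control members against 81.6 CPM elsewhere, at 150 against 71.7 CPM in section 1 Nf1Postn, at 225 against 125 CPM in section 2 control and at 130 against 77.1 CPM in section 2 Nf1Postn. Ifit1, which binds foreign RNA, was at 69.6 against 14.6 CPM, 24.1 against 11.5 CPM, 61.5 against 29.7 CPM and 29.4 against 17.2 CPM in the same order. Both genes were thus higher in members in every combination, Ifit1 on 6, 5, 32 and 9 UMIs.

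By 1, 2 and 3 or more UMIs of Mmp3 and Il1rn, counts that the choice used, the interferon response list was at 512, 1044 and 1054 CPM in section 1 control, 478, 455 and 626 CPM in section 1 Nf1Postn, 381, 579 and 1079 CPM in section 2 control and 331, 771 and 426 CPM in section 2 Nf1Postn, with no common order in the genotypes. By steps on the spot grid, the list was at 694 CPM in members, 500 CPM at 1 step, 453 CPM at 2 steps and 345 CPM at 3 or more steps, with removed spots left out beyond the members. The same order held in each section and genotype, from 904, 481, 448 and 333 CPM in section 1 control to 512, 442, 356 and 263 CPM in section 2 Nf1Postn. The removed Gpnmb and Ccl7 spots were at 908, 385, 1548 and 751 CPM in section 1 control, section 1 Nf1Postn, section 2 control and section 2 Nf1Postn, above the members in section 2, alike in section 1 control and below them in section 1 Nf1Postn. Members that touched a removed spot were at 1730, 582, 1120 and 407 CPM in the same order, on 47, 27, 283 and 33 UMIs, and those that did not at 525, 460, 594 and 550 CPM, so that touching members were the lower group in section 2 Nf1Postn. Other spots were at 629, 389, 709 and 462 CPM where they touched one and at 323, 317, 430 and 300 CPM where they did not. Members were thus above the other spots on either side of this split except for the touching members of section 2 Nf1Postn. The macrophages list was at 3901, 2436, 3894 and 2169 CPM in touching members and at 3046, 2393, 3057 and 2316 CPM in the others, and its part in the interferon values was not tested.

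**Figure D4:**
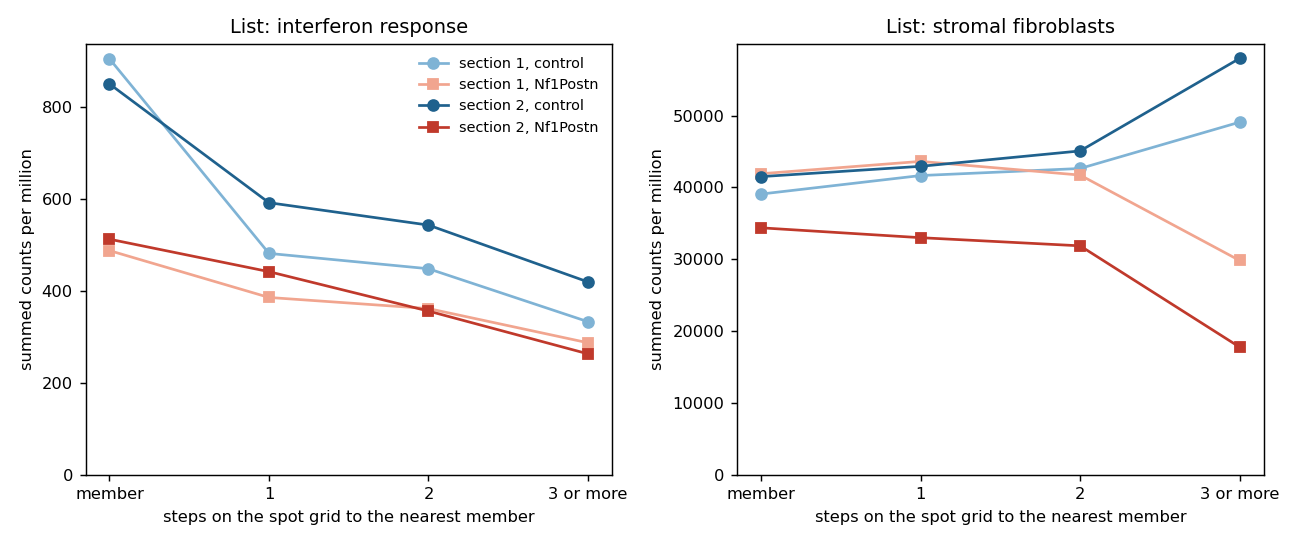
Summed CPM of the interferon response (left) and stromal fibroblasts (right) lists against the number of grid steps to the nearest member, with 0 shown as member and 1 line for each section and genotype. The interferon list falls with distance in all 4 lines, whereas the stromal list rises to 49086 and 57962 CPM in the control callus and falls to 29832 and 17775 CPM in the Nf1Postn callus at 3 or more steps.

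Of the dendritic cells and MHC class II list, all 6 genes with enough UMIs had a pooled ratio above 0 (median 0.51), beside 7124 of 11830 over all genes, 3 of them were above the other spots in all 4 combinations, beside 10.4% of all genes, and none was 2-fold apart in each. In section 1 control, 2 of the 6 were at 0 in members. Cd74, the invariant chain, was at 939 against 740 CPM in section 1 control, 2345 against 1941 CPM in section 1 Nf1Postn, 1317 against 1063 CPM in section 2 control and 1647 against 1160 CPM in section 2 Nf1Postn. Of the macrophages list, 10 of 13 genes had a ratio above 0, beside 7124 of 11830 over all genes. Its median was 0.34 beside 0.08 over all genes, and -0.03 beside -0.29 with TMM scaling factors. In all 4 combinations 4 of 13 were above the other spots, beside 10.4% of all genes. Spp1, osteopontin, which bone cells also make, gave 52.5% of the list's UMIs in members. C1qa, a complement component of resident macrophages, was at 423 CPM in members and 328 CPM elsewhere, while Csf1r, the receptor for their growth factor, was at 122 and 138 CPM.

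The neutrophils list had a median log2 ratio of 1.13, which 1 spot raised. In section 1 control the list was at 5113 CPM in members against 2074 CPM elsewhere, and at 1632 CPM in members without that spot. It was at 1607 against 1391 CPM in section 1 Nf1Postn, at 1090 against 1447 CPM in section 2 control and at 884 against 499 CPM in section 2 Nf1Postn. The summed level of members was thus lower in section 2 control and, without that spot, in section 1 control. In section 2 control 8 of 9 genes of the list were above the other spots. In all 4 combinations 6 of 9 were, beside 10.4% of all genes, a count that includes that spot in section 1 control. A member of section 1 control held 2 UMIs of Il1rn, 0 of Mmp3 and 309 of the 1612 UMIs of the list (19.2%), among them 109 of S100a9, 72 of Camp, 49 of S100a8, 27 of Lcn2, 21 of Ngp and 20 of Ltf, which encode proteins of granules and cytosol of the neutrophil lineage. Ly6g, Cxcr2 and Retnlg, markers of mature neutrophils, were at 0 in it. Without this spot the median was 0.47 and the summed level fell from 1439 to 1169 CPM, below the 1535 CPM of the spots that were not members. Mmp9, which osteoclasts also express, made up 53.0% of the list in members and 80.4% elsewhere. Members with Il1rn only were at 3210 CPM (1795 CPM without that spot), those with Mmp3 only at 993 CPM and those with both at 1074 CPM.

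The erythroid cells list had a pooled median of 1.36. It was at 267 CPM in section 1 control members against 158 CPM elsewhere and at 419 against 272 CPM in section 2 control. In the Nf1Postn callus it was at 2552 against 1525 CPM in section 1 and at 2381 against 1458 CPM in section 2. By UMIs of Mmp3 and Il1rn, counts that the choice used, the list was highest in members with 1 UMI within each section and genotype. It was at 597, 4039, 1547 and 3785 CPM there in section 1 control, section 1 Nf1Postn, section 2 control and section 2 Nf1Postn. It was lowest in members with 3 or more, at 123, 626, 260 and 751 CPM in the same order.

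Members were also set against other groups of spots chosen by marker genes. Against the removed Gpnmb and Ccl7 spots, per section, 1 of 2744 genes (0.0364%) was higher and 6 (0.219%) were lower. The mean of log2(CPM + 1) over spots gave 2 higher and 90 lower, at a median depth of 3005 UMIs in members and 4465.5 in the removed spots. Taken alone, section 1 gave 19 and 25 and section 2 gave 67 and 134. By pooled levels in both sections, the higher gene was Camp, an antimicrobial peptide of neutrophil granules (144 against 34.6 CPM). Of its 161 UMIs in members, 72 lay in the single spot above. The lower genes were Gpnmb and Ccl7, by which the removed spots were chosen, with Ctss, a lysosomal protease of macrophages (477 against 1300 CPM), Trem2, a lipid receptor of macrophages (78.5 against 184 CPM), Kif26b, a kinesin family gene (49.98 against 125 CPM), and Amdhd2, an enzyme of amino sugar breakdown (49.1 against 100.2 CPM). The stromal fibroblasts list was at 39445 CPM in members and 38341 CPM in these spots. All of these values were taken without regard to genotype and carry its mix. In section 1, 77 of 98 members were Nf1Postn against 43 of 83 removed spots. In section 2, 95 of 202 members were Nf1Postn against 62 of 217 removed spots.

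The 300 kept spots with the highest summed level of Postn and Col3a1, outside both other groups, served as the collagen-rich stroma of the callus. Against them, 61 of 5360 genes (1.14%) were higher in members and 14 (0.261%) were lower by pooled levels. The balance turned with the mean of log2(CPM + 1) over spots, which gave 9 higher and 2257 lower. Depth differed between the groups, with a median of 3005 UMIs in members and 6876 in these spots. The part of depth in this count was not tested. Taken alone, section 1 gave 116 and 149 and section 2 gave 186 and 109. The genes named next are those of the pooled levels. The lower genes were led by Pamr1 (80.3 against 338 CPM), Angptl1 (170 against 571 CPM), Lrrc15, a marker of activated fibroblasts (80.3 against 237 CPM), Dpt, the matrix protein dermatopontin (192 against 559 CPM), and Postn itself. Clec3b, Thbs4, Cthrc1 and Abi3bp, all secreted matrix proteins, followed at log2 ratios of -1.41, -1.23, -1.17 and -1.07. Higher in members were Hbb-bs and Hba-a2, globins whose near-identical copies make single genes uncertain (2.68 and 2.57), Camp (2.51), Car2 (2.43) and Col2a1 (2.05), with Mylk2 (1.68) and Myh2 (1.61) of muscle. These ratios were taken by section only and carry the mix of genotypes, since 77 of 98 members in section 1 were Nf1Postn against 73 of 161 Postn and Col3a1 spots. Within section 1 control, section 1 Nf1Postn, section 2 control and section 2 Nf1Postn, the erythroid cells list was at 267, 2552, 419 and 2381 CPM in members and at 155, 521, 136 and 239 CPM in these spots. The mature skeletal muscle list was at 13889, 28265, 29523 and 67871 CPM in members and at 7731, 20675, 13960 and 32173 CPM in these spots. The interferon response list was at 511, 413, 627 and 555 CPM in the Postn and Col3a1 spots of section 1 control, section 1 Nf1Postn, section 2 control and section 2 Nf1Postn, below the members except in the last. Mmp3 in the Postn and Col3a1 spots was at 20.7, 69.4, 51.7 and 77.8 CPM in the same order, and 81 of the 300 held a UMI.

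The genotype comparison set the 172 Nf1Postn members against the 128 control members, section by section. The conditional allele is first given as a check of the labels. Over the spots that were not members, Nf1 was at 68.5 CPM in Nf1Postn against 88.1 CPM in control in section 1 and at 49.4 against 78.9 CPM in section 2. Whether its probes lie in the deleted part is not given in the sources used here, so this level checks the labels only in part. Among members, Nf1 was at 57.9 CPM in Nf1Postn (12 UMIs) and 57.97 CPM in control (5 UMIs) in section 1, and at 55.4 CPM (17 UMIs) and 88.4 CPM (46 UMIs) in section 2.

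Of 985 genes with enough UMIs in members, 14 (1.42%) were higher in Nf1Postn in both sections and 9 (0.914%) were lower. The mean of log2(CPM + 1) over spots gave 7 higher and 324 lower, at a median depth of 2653 UMIs in Nf1Postn and 4363.5 in control members. Taken alone, section 1 gave 63 and 38 and section 2 gave 113 and 124. Outside the members, pooled levels in both sections gave 483 of 11768 genes (4.1%) higher and 195 (1.66%) lower. All but Cxcl14 of the genes found among members by pooled levels had a ratio of the same sign there. Lower were genes of cartilage, namely Col10a1, the collagen of hypertrophic cartilage (31.1 against 259 CPM, log2 ratio -3.06), the chondrocyte factor Sox9 (101 against 411 CPM), Col2a1, and the proteoglycan Acan (280 against 801 CPM). Col2a1 in members was at 2803 CPM in Nf1Postn and 40843 CPM in control in section 1, and at 8826 and 23128 CPM in section 2. In the other spots its log2 ratio was -2.69, beside -2.003 in members. C1qtnf3, Rbp4, the osteoclast phosphatase Acp5, Bst2, an interferon-induced membrane protein, and Ptx3, a soluble pattern receptor, made up the rest.

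Higher in Nf1Postn members were Hbb-bs (1520 against 213 CPM, log2 ratio 2.84) and Hba-a2 (2.28), and genes of fast muscle, among them Ckm, the creatine kinase of muscle (9933 against 4381 CPM, 1.18), Myoz1 (1.22), Mylk2 (1.304) and Atp2a1, a calcium pump (0.77). In the other spots the log2 ratio of Hbb-bs was 2.81 and that of Hba-a2 was 2.79. The ratios of these muscle genes were smaller in members than in the other spots, where that of Ckm was 2.82, and the mature skeletal muscle list was lower in Nf1Postn members than in other Nf1Postn spots, at 28265 against 65437 CPM in section 1 and 67871 against 113540 CPM in section 2. In control it was at 13889 against 13976 CPM and 29523 against 21757 CPM. Cxcl14, a chemokine of fibroblasts and epithelia, differed less outside the members, and in opposite directions in the 2 sections. It was at 526 CPM in section 1 Nf1Postn members on 109 UMIs, at 255 CPM in section 1 control on 22 UMIs, and at 261 and 121 CPM in section 2 on 80 and 63 UMIs. In the spots that were not members it was at 232 and 247 CPM in section 1 and at 168 and 145 CPM in section 2. H1f1, a linker histone (469 against 176 CPM), and Luc7l3, a splicing factor (255 against 112 CPM), also had smaller ratios in the other spots, 0.34 and 0.35. Among members with 2 or more UMIs of Mmp3 and Il1rn, the counts were 2 higher and 4 lower. The difference between the ratios of members and other spots was not tested.

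**Figure D5:**
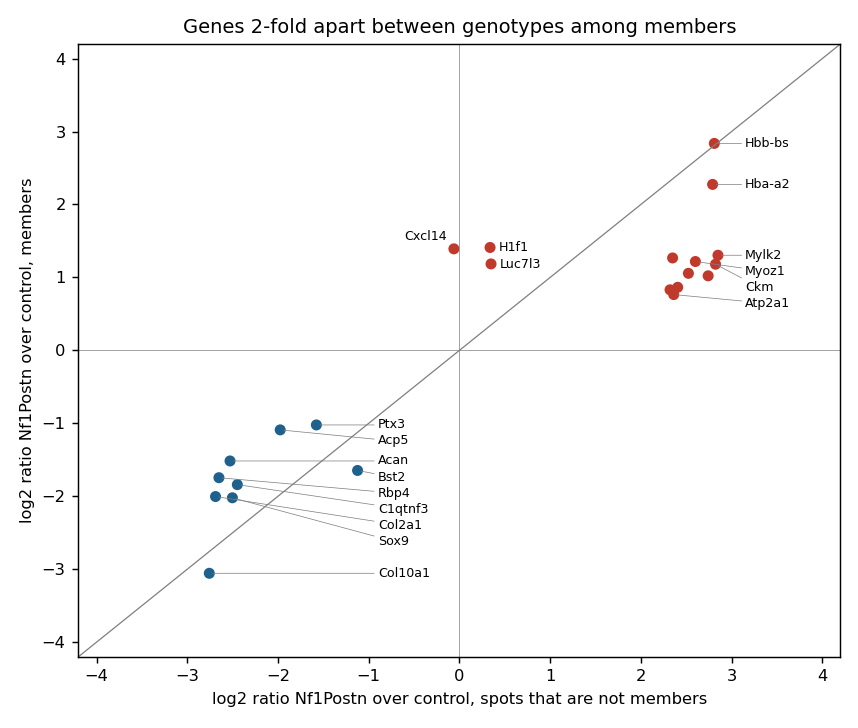
Log2 ratio of Nf1Postn over control for the 23 genes that differed 2-fold or more in the same direction in both sections among members, in members (vertical axis) and in spots that are not members (horizontal axis), with the line of equal ratios and the genes described in the text named. Most genes lie on the same side of 0 on both axes, and Cxcl14 lies at 1.39 in members and -0.06 in the other spots.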

How the data were processed

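UMI tables and genotype annotations of 2 Visium sections were used. Per the submitters' processing notes and the paper's methods, the authors aligned probe reads to mm39 with Space Ranger 1.3.0 and exported tables from Partek Flow. The deposited values are expected counts, since entries joining several Ensembl IDs hold means and need not be whole. The entry that names no gene was dropped (6.8e-05% and 3.8e-05% of UMIs). The tables list 19430 genes. Of 6380 spots, 460 with under 1000 UMIs were left out, and 5 spots had no genotype, none of them a member. Total UMIs were 1.70e+07 in section 1 and 1.81e+07 in section 2. The sections share 2711 spot barcodes, a property of the slide design, and 7 members share one across sections.

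Levels were pooled as UMIs over total UMIs. Ratios are log2, and the lower of a pair of groups was set to 3 counts where it held less. Genes were named up to 15 each way per comparison by pooled ratio, with members of described lists. Members, lists and comparisons were chosen with earlier results of these data known, and the interferon list after its genes had been seen. Alternatives were other member numbers and rules, depth limits, a section left out, mean log2(CPM + 1), TMM factors (edgeR 4.0.16), gene filters and thinning to 1000 UMIs. Some genes listed (Isg15, Mx1, Mx2, Cxcl2 and Hba-a1 among them) were not analysed here. On simulated data for members against other spots, 200 of 11793 genes tested were changed 4-fold. All 200 had the right sign, and 52% of the 200 were called. No doublet caller was run on spots. Python 3.11.15 was used.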

Additional observations from a re-analysis of the deposited data

Results flagged for a closer look

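All gene lists used here were screened for opposite signs in the genotypes of the log2 ratio of the summed level in members to that in the other spots. In 8 of them it was negative in both sections of 1 genotype and positive in both sections of the other. How many lists would show this without a genotype difference was not worked out. The difference was not tested in any of the 8, each genotype is 1 mouse, and the values below are the mean over sections in Nf1Postn minus that in control. The stromal fibroblasts list differed by 0.643, with ratios of -0.31 and -0.31 in the control callus and 0.22 and 0.46 in the Nf1Postn callus. Matrix metalloproteinases other than Mmp3 differed by 0.603, AP-1 genes by 0.252, chondrocyte genes by 0.398 and proliferation genes by 0.753. Their summed levels were lower than elsewhere in control members, in part by very little, and higher in Nf1Postn members. In section 1 and section 2 control, metalloproteinases were at -0.0975 and -0.14 and AP-1 genes at -0.11 and -0.006. Chondrocyte genes were at -0.03 and -0.15 and proliferation genes at -0.58 and -0.25. By gene, 5 of 8 AP-1 genes and 6 of 11 metalloproteinases were above the other spots in section 2 control. Hypoxia and glycolysis genes differed by -1.03, with 0.28 and 0.29 in control and -0.81 and -0.67 in Nf1Postn. Pericyte and smooth muscle genes differed by -0.673, with 0.03 and 0.04 in control and -0.75 and -0.53 in Nf1Postn. Genes of regenerating muscle differed by -1.53, with 1.47 and 0.41 in control and -0.72 and -0.46 in Nf1Postn. The mature skeletal muscle list outside the members was at 65437 and 113540 CPM in the Nf1Postn callus and at 13976 and 21757 CPM in the control callus, and its part in these differences was not tested.

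The 460 spots with under 1000 UMIs, which the reported comparisons left out and the alternatives with a minimum of 500 UMIs used in part, held 8 UMIs of Mmp3 (26.1 CPM) and 10 of Il1rn (32.6 CPM).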

How the results depend on the processing

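Each comparison has 1 mouse per genotype, and 43.3% of the members rest on 1 UMI, so which spots were chosen depended on depth. Under alternatives other than leaving out a section, 89 values stayed within their spread or 1.5 times a count, 62 moved further and 5 turned sign, and the cause was not tested. Spread here is the standard deviation of the values of the 2 sections, which is wide where the sections disagree. A share ratio of 0.31 with Gpnmb and Ccl7 spots kept in was thus within the spread of the reported 0.81. Counts of 0 that stayed at 0 are also among the 89. TMM factors shifted the median of all genes by -0.37 and the mean of log2(CPM + 1) by -0.29. Relative to all genes, the medians under TMM were as reported (stromal fibroblasts 0.15, macrophages 0.26, neutrophils 1.05, interferon response 0.58), and on the log scale they were 0.37, 0.27, 0.37 and 0.24. The alternatives without the spot richest in neutrophil genes, with adjacent or weighted spots, and with 2 or more UMIs were added after seeing the data. No paired analysis was possible because no test was made, with 1 mouse per genotype, and ratios between genotypes were taken within each section.

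Counts are given as genes higher and then lower. Against other spots (16 and 0), the count higher was 10 with 200 members, 7 with 400, 3 by Mmp3 alone, 7 by Il1rn alone, 4 with a minimum of 2000 UMIs per spot, 2 with mean log values, 3 with TMM, 55 with no minimum per gene, 3 with a minimum of 200, 4 after thinning to 1000 UMIs and 2 against adjacent spots. Against Gpnmb and Ccl7 spots (1 and 6), counts were 0 higher with spot minimums of 2000 and 500, 2 and 90 with mean log values, 38 and 59 with no minimum per gene and 0 and 1 with a minimum of 200. Against Postn and Col3a1 spots (61 and 14), counts were 23 lower with a spot minimum of 500, 9 and 2257 with mean log values, 310 and 36 with no minimum per gene and 28 higher with a minimum of 200. Between genotypes (14 and 9), counts were 5 higher with 200 members, 23 and 16 with 400, 28 higher with Gpnmb and Ccl7 spots kept in, 22 higher by Mmp3 alone, 41 and 40 by Il1rn alone, 7 and 324 with mean log values, 39 and 101 with no minimum per gene, 4 and 2 with a minimum of 200, 5 lower after thinning, and 2 and 4 with 2 or more UMIs.

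The log2 share ratio of the genotypes (0.81) was 0.31 with Gpnmb and Ccl7 spots kept in and turned to -0.30 by Il1rn alone and to -0.027 with 2 or more UMIs. With Gpnmb and Ccl7 spots kept in, list medians were 0.54 for macrophages, -0.033 for neutrophils and 1.72 for interferon response. By Mmp3 alone, neutrophils were at 0.027 and interferon response at 0.58. By Il1rn alone, stromal fibroblasts were at 0.023, macrophages at 0.24 and interferon response at 0.45. With mean log values, macrophages were at 0.062, neutrophils at 0.15 and interferon response at 0.029. With TMM, stromal fibroblasts turned to -0.14, macrophages to -0.033 and interferon response was 0.29. After thinning, macrophages were at 0.27 and interferon response at 0.55. With 2 or more UMIs they were 0.45 and 0.90. Neutrophils (1.13) were at 0.46 with 200 members and at 0.46 against adjacent spots. Against adjacent spots, stromal fibroblasts were at 0.059, macrophages at 0.17 and interferon response at 0.39, the last 0.52 against weighted spots. The fold of members beside members (2.67) was 1.63 by Il1rn alone, 4.36 with Gpnmb and Ccl7 spots kept in and 4.37 with 2 or more UMIs.

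Leaving out section 1 or section 2 gave log2 share ratios of 0.06 and 2.43, 90 and 226 genes higher and 10 and 1 lower than other spots, 67 and 19 higher and 134 and 25 lower than Gpnmb and Ccl7 spots, 186 and 116 higher and 109 and 149 lower than Postn and Col3a1 spots, and 113 and 63 higher and 124 and 38 lower between genotypes. List medians were 0.12 and 0.31 for stromal fibroblasts, 0.29 and 0.35 for macrophages, 0.77 and 1.93 for neutrophils and 0.52 and 0.46 for interferon response. The fold of members beside members was 2.14 and 3.73, Mmp3 was at 388 and 317 CPM and Il1rn at 165 and 204 CPM.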

Other observations

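Several lists of skeletal and dividing cells had opposite signs in the combinations, so that their pooled ratios also carry the mix of genotypes. Of 10 chondrocyte genes, 4 and 2 were above the other spots in control members of section 1 and section 2, and 7 and 8 in Nf1Postn members. Of 9 osteoblast and osteocyte genes the numbers were 3 and 0 in control and 3 and 8 in Nf1Postn, of 8 osteoclast genes 3 and 1 against 4 and 7, and of 8 proliferation genes 2 and 1 against 6 and 5. Over all genes, 47.1% and 53.9% were above the other spots in control members and 56.2% and 60.6% in Nf1Postn members. The T and B lymphocytes list, on 79 UMIs in all, was at 70.5 CPM in members and 45.6 CPM elsewhere, and was lower in members in section 2 Nf1Postn.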
